A study of Homo sapiens with 18 samples.

Results

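Olaparib was compared with vehicle in C4-2B cells after 7 days of treatment. C4-2B is an established human prostate cancer line that is castration resistant, and olaparib is an inhibitor of PARP1 and PARP2, the enzymes that attach ADP-ribose chains to proteins at DNA breaks. The comparison used 6 of the 18 RNA-seq libraries of the series, 3 from cells given olaparib at 1 μM and 3 from cells given the DMSO vehicle. All cells were labelled wild type. The 3 libraries of VIC-1911, an inhibitor of the mitotic kinase AURKA, at 0.1 μM and the 3 libraries of both drugs together, also taken at 7 days, served only to show how the olaparib response differed when VIC-1911 was present. Nothing in the labels says that the replicates came from separate cultures, so p-values measured the spread between these libraries, which may be technical.

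A gene was tested where at least 3 of the 6 libraries held 10 or more counts, which kept 13922 of 21276 genes. Library totals ran from 4967931 to 19684208 counts, and olaparib replicate 1 was the smallest. The first principal component, with 74.5% of the variance, separated olaparib from vehicle, and the second, with 9.72%, set olaparib replicate 1 apart from replicates 2 and 3. The vehicle and VIC-1911 libraries carry one run of library numbers and the olaparib and combination libraries a later one, so the numbering and olaparib cannot be told apart in either olaparib step. The 12 luminal prostate markers were all measured, with summed levels of 4786 to 4857 FPKM (reads scaled by gene length and library depth) in vehicle and 3212 to 3321 FPKM under olaparib. Summed levels stayed under 3 FPKM for basal, fibroblast, endothelial and neuroendocrine markers, with the endothelial markers KDR and TEK at 0. Leukocyte markers summed to 6.11 to 6.96 FPKM in vehicle and 8.39 to 10.4 FPKM under olaparib, with the defining marker PTPRC at 0.

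PARP trapped on DNA at replication forks is known to activate the DNA damage checkpoint, through which the transcription factor p53 turns on genes that stop the cell cycle, repair DNA and start apoptosis. ATF4 is the transcription factor of the integrated stress response, which cells switch on when amino acids run short or proteins misfold, and it turns on amino acid transport, serine and asparagine synthesis and many tRNA synthetases. Mitotic genes are switched on late in the cell cycle through promoters that carry CHR and CCAAT elements, and replication genes earlier through E2F sites.

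Several of the genes described below hold letter matches to these elements within 250 bases before their start, in the RefSeq promoters of GRCh38.p14. The first set shows matches to TGATGNAAN, searched on both strands, in genes that fell under olaparib and hold a match. These are the letters searched for the C/EBP-ATF response element, which ATF4 binds. A match was found in 7 of 39 ATF4 targets, and S100P and AARS are not on that list. Capitals mark the match, and each stretch is written 5′ to 3′ on the strand of its gene.
ASNS, chr7:97872447-97872498, minus strand: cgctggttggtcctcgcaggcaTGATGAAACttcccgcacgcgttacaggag
FGF21, chr19:48755447-48755498, plus strand: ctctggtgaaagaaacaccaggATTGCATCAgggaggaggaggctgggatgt
S100P, chr4:6693732-6693783, plus strand: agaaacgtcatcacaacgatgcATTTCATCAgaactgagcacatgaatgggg
CHAC1, chr15:40953239-40953290, plus strand: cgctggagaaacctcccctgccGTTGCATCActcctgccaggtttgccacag
AARS, chr16:70289665-70289716, minus strand: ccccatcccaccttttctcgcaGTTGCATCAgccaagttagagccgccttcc
The match begins 68 bases before the start of ASNS, 55 before FGF21, 124 before S100P, 210 before CHAC1 and 188 before AARS. CHAC1 and AARS were added after their values were seen.

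The second set shows matches to TTTGAA, the letters searched for the CHR element on both strands, in the mitotic genes with the smallest adjusted p.
CDK1, chr10:60778148-60778199, plus strand: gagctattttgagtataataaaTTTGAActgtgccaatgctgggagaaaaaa
CKS2, chr9:89311144-89311194, plus strand: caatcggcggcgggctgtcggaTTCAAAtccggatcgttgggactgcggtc
KPNA2, chr17:68035614-68035665, plus strand: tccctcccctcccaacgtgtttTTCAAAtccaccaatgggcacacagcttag
TOP2A, chr17:40418018-40418069, minus strand: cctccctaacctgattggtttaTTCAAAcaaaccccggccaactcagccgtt
The match begins 161 bases before the start of CDK1, 29 before CKS2, 99 before KPNA2 and 151 before TOP2A, which has another CHR match further upstream. A match is a description of the letters and was not tested for binding.

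Olaparib changed the level of 7621 of the tested genes, most of them by little. At adjusted p under 0.05 (edgeR's quasi-likelihood test, Benjamini-Hochberg over the 13922 genes), 3726 genes (26.8%) were higher and 3895 (28.0%) lower than in vehicle. With a fold limit of 2 as well, 369 genes (2.65%) were higher and 492 (3.53%) lower. The median change was 2.59-fold among the 369 and 2.55-fold among the 492. Genes past 4-fold numbered 80 up and 101 down, against 25 and 48 past 8-fold. Of the 492 lower genes, 41 averaged 100 FPKM or more in one group, against 6 of the 369 higher genes and 538 of all 13922. The falls thus included more of the highly expressed genes than the rises. At the low end, 143 of the 492 and 137 of the 369 averaged under 1 FPKM in both groups, against 1988 of all tested. Without olaparib replicate 1 the counts were 334 higher and 502 lower.

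**Figure D1:**
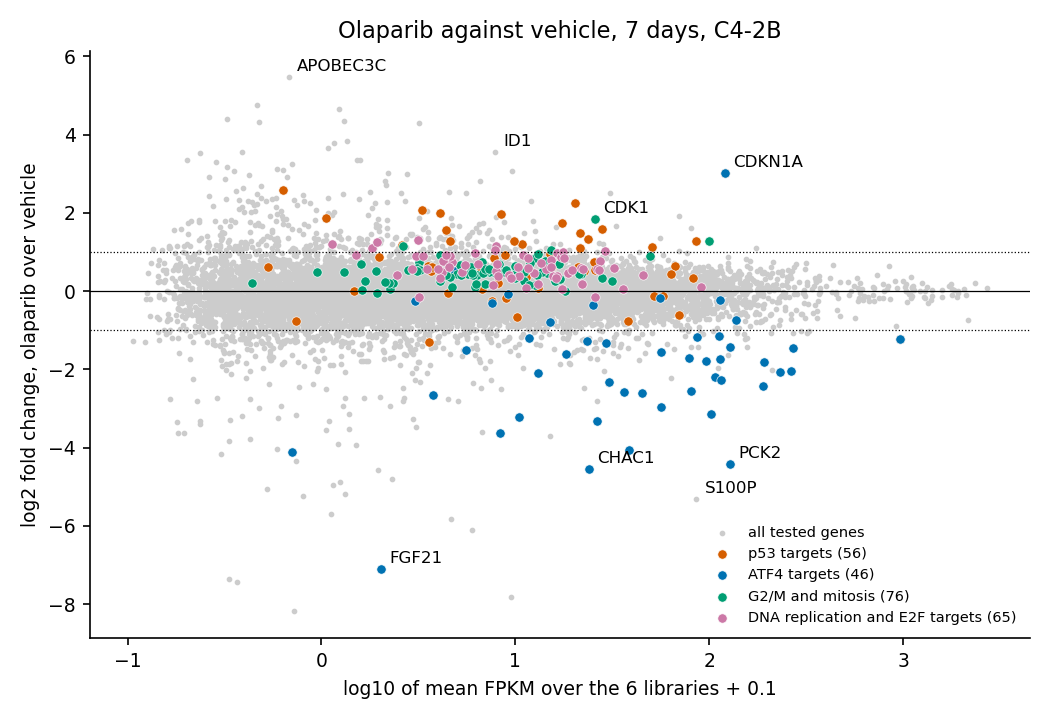
Fold change of each tested gene under olaparib (log2, vertical) against the log10 of its mean level over the 6 libraries (FPKM + 0.1, horizontal), with the members of 4 gene lists coloured and dotted lines at a 2-fold change. ATF4 targets lie low at high levels, and p53 targets reach up to CDKN1A at 3.03, which is on both lists and is drawn with the ATF4 targets. Most mitotic and replication genes sit in a band just above 0, with CDK1 higher at 1.85.

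The p53 targets rose. Of 56 tested targets, 40 were higher and 11 lower, with a median log2 fold change of 0.62 against -0.01 over all tested genes, and 19 passed 2-fold upward. CDKN1A, which encodes the cyclin-dependent kinase inhibitor p21 (chromosome 6, 36676463 to 36687332, GRCh38), stood at 28.5, 24.3 and 25.1 FPKM in vehicle and at 209.7, 219.4 and 218.6 FPKM under olaparib. The groups lay far apart, and the log2 fold change was 3.03 ± 0.05 (SE, adjusted p = 7.44e-25). BTG2, an antiproliferative gene, measured 7.79, 6.52 and 6.31 FPKM in vehicle and 32.7, 33.0 and 35.4 FPKM under olaparib, a log2 fold change of 2.25 ± 0.07 (adjusted p = 1.25e-19). ZMAT3, a p53-induced RNA-binding protein, went from 3.33 ± 0.24 to 13.3 ± 1.1 FPKM (SD, n = 3), and MDM2, the ligase that degrades p53, from 13.2 ± 0.6 to 33.8 ± 1.0 FPKM. Neither pair of groups overlapped, and the log2 fold changes were 1.97 and 1.32.

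The p53 list includes genes of cell death. BAX, which permeabilises mitochondria, rose from 14.1 ± 1.2 to 41.8 ± 3.6 FPKM (log2 fold change 1.58). FAS, a death receptor, rose from 1.21 ± 0.38 to 5.18 ± 0.49 FPKM (2.08), and BBC3, which encodes PUMA, from 6.02 ± 0.33 to 11.4 ± 1.1 FPKM (0.93). The positions of FAS and ACTA2 overlap, and whether counting used strand is not stated, so their counts may share reads. Outside the p53 list, TNFRSF1A, the receptor of TNF, fell by 0.85 on the log2 scale and BCL2L2, an antiapoptotic BCL2 relative, by 0.58. In the BCL2 family and apoptosis list as a whole, 17 of 38 were higher and 8 lower. By at least 2-fold, 2 were higher and 2 lower, and log2 fold changes ran from -2.24 to 2.08.

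Of the 56 p53 targets, 11 went the other way, 3 of them by at least 2-fold. SESN2, a stress sensor that restrains mTORC1, stood at 32.6, 34.1 and 31.5 FPKM in vehicle and close to 14 FPKM in each olaparib library, a log2 fold change of -1.27 ± 0.05. GDF15, a stress-induced cytokine, fell from 1339 ± 89.5 to 584 ± 70 FPKM (-1.22). Both genes are also on the list of ATF4 targets, as is CDKN1A. The 2 lists share only these 3 genes, so the other lower p53 targets are not on the ATF4 list. Neither SESN2 nor GDF15 had the lowest log2 fold change among the 56 targets, which was -1.30. Among the CDK inhibitors, CDKN1A was the 1 member of 8 that rose. CDKN1B, which encodes p27, fell by 0.68 on the log2 scale, and CDKN2C by 0.31, a call that was lost in 8 of the alternative fits, the replicate block and the fits without vehicle replicates 1 or 3 or olaparib replicates 1 or 3 among them (adjusted p between 0.055 and 0.291).

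**Figure D2:**
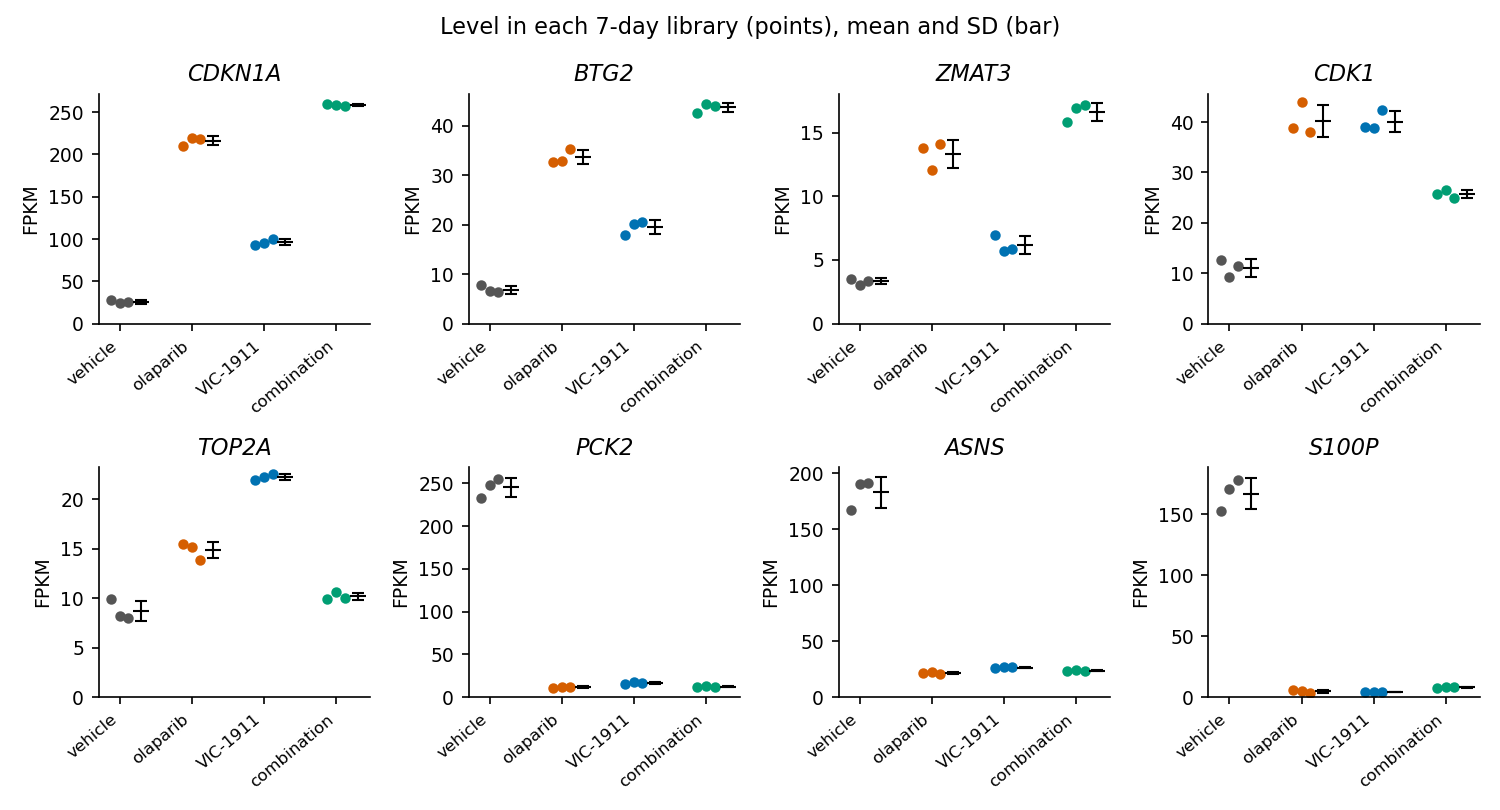
Level in FPKM (vertical) of 8 genes in each 7-day library (points), with the mean and SD of the 3 libraries of each group (bar): vehicle, olaparib, VIC-1911 and the combination. CDKN1A, BTG2 and ZMAT3 are highest in both groups that received olaparib, while PCK2, ASNS and S100P are high in vehicle only.

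The ATF4 targets fell, with the lowest median of the 29 lists. Of 46 tested, 42 were lower and 2 higher, 36 of the 42 by at least 2-fold. Their median log2 fold change was -1.77. PCK2, the mitochondrial enzyme that makes phosphoenolpyruvate, stood at 233.2, 248.3 and 255.4 FPKM in vehicle and at 10.7, 12.4 and 11.7 FPKM under olaparib. The log2 fold change was -4.41 ± 0.06 (adjusted p = 2.00e-27), the smallest adjusted p of the named genes. SLC7A11, the cystine importer, stood at 66.5, 74.7 and 76.3 FPKM in vehicle and at 4.24, 4.55 and 4.42 FPKM under olaparib (-4.06 ± 0.06). An antisense gene overlaps SLC7A11, and reads of the pair cannot be told apart without strand. ASNS, which makes asparagine, went from 183 ± 14 to 21.4 ± 1.1 FPKM (-3.13), and TRIB3, a pseudokinase that damps the same response, from 99.2 ± 2.0 to 13.1 ± 0.2 FPKM (-2.95).

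CHAC1, which degrades glutathione, fell from a mean of 45.6 to 2.05 FPKM, and the transcript of ATF4 itself from 394 to 146 FPKM, with log2 fold changes of -4.54 and -1.46. DDIT3, the stress-induced factor CHOP, fell by 2.31 on the log2 scale. These 3 were chosen after their values were seen. FGF21, a secreted metabolic hormone, had 173 counts over the vehicle libraries and 1 count over the olaparib libraries, a ratio of 190 with an exact 95% interval of 33.7 to 7556 that covers counting error only. The 2 targets that rose were CDKN1A and KLHL24, at a log2 fold change of 0.53.

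Cytosolic tRNA synthetases, which charge tRNAs with amino acids, fell in part. Of 21 tested, 12 were lower, 8 of them by at least 2-fold, and 5 were higher. GARS stood at 177.4, 180.7 and 172.4 FPKM in vehicle and at 45.6, 47.6 and 45.5 FPKM under olaparib, a log2 fold change of -1.97 ± 0.04 (adjusted p = 1.25e-22). SARS, CARS and MARS had log2 fold changes of -1.57, -1.62 and -1.41. FARSA and VARS, the synthetases of phenylalanine and valine, were higher by 0.40 and 0.31. The 4 that did not pass the test were HARS, QARS, DARS and TARSL2.

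The unfolded protein response and ER folding genes were lower almost without exception. Of 26 tested, 25 were lower and none higher, with a median log2 fold change of -0.63. XBP1, the transcription factor at the centre of the response, stood at 328.5, 331.2 and 346.0 FPKM in vehicle and at 80.1, 88.4 and 86.0 FPKM under olaparib. Its log2 fold change was -2.0 ± 0.04 (adjusted p = 1.46e-22), and that of ERN1, the sensor that splices it, was -1.62. HERPUD1, which takes part in the disposal of misfolded ER proteins, fell by 1.74 and HYOU1, an ER chaperone, by 0.95. In cytosolic and mitochondrial heat shock genes the direction was the opposite, with 14 of 20 higher and 2 lower. HSPH1 and DNAJA1, a cytosolic chaperone and a co-chaperone, rose by 0.68 and 0.65 on the log2 scale, while the mitochondrial chaperone HSPA9 fell by 0.70.

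**Figure D3:**
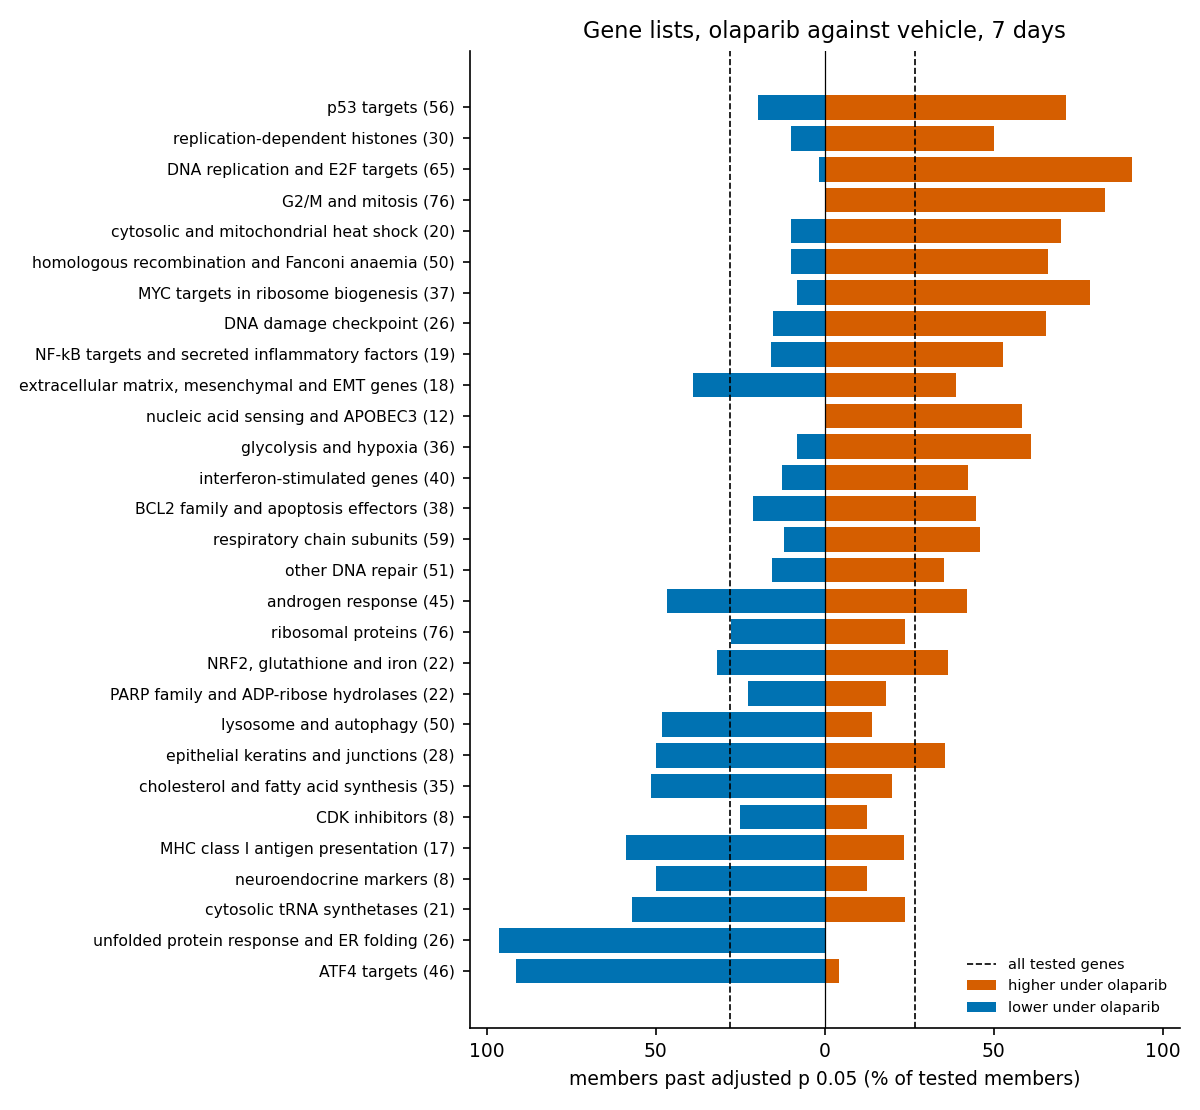
Share of tested members (horizontal, %) that were higher (right) or lower (left) under olaparib at adjusted p under 0.05 for 29 gene lists, with the number of tested members in brackets and dashed lines at the shares of all tested genes, 26.8% and 28.0%. The ATF4 and unfolded protein lists extend furthest to the left and the replication and mitosis lists furthest to the right.

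Mitotic and replication genes were higher under olaparib than in vehicle, by modest folds. In the G2/M and mitosis list 63 of 76 were higher and none lower, 4 of them by at least 2-fold, with a median log2 fold change of 0.48. CDK1, the kinase that drives mitotic entry, stood at 12.7, 9.20 and 11.4 FPKM in vehicle and at 38.8, 43.9 and 38.1 FPKM under olaparib. The groups did not overlap, and the log2 fold change was 1.85 ± 0.08 (adjusted p = 6.74e-17). CKS2, a CDK1 subunit, rose by 1.29, KPNA2, a nuclear import receptor, by 0.90, and TOP2A, the topoisomerase of mitotic chromosomes, from 8.72 ± 1.03 to 14.8 ± 0.8 FPKM (0.72). MKI67, the proliferation marker, rose by 0.19 and AURKA by 0.47. The MKI67 call was lost in the limma fit and without vehicle replicate 3 (adjusted p 0.058 and 0.080), and the list count ran from 49 to 71 with 1 library left out.

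In DNA replication and E2F targets, 59 of 65 were higher and 1, DUT, was lower, a call lost in 12 of the alternative fits (adjusted p between 0.061 and 0.251). MCM4, a helicase subunit, went from 10.8 ± 1.1 to 21.9 ± 0.8 FPKM (log2 fold change 0.98). RRM2, which makes deoxynucleotides, stood at 12.1, 11.1 and 11.1 FPKM in vehicle and at 22.3, 25.6 and 22.7 FPKM under olaparib (1.01 ± 0.06). PCNA, the polymerase clamp, rose by 1.02 and MCM2 by 0.76. Replication-dependent histones were higher in 15 of 30, with HIST1H2BK at 0.88, though histone copies are close in sequence, and their counts are uncertain.

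Many genes of the homologous recombination and checkpoint lists rose as well, and other DNA repair genes moved by little. PARP genes moved at shares near those of all tested genes. In homologous recombination and Fanconi anaemia genes, 33 of 50 were higher and 5 lower. BRCA2, a mediator of homologous recombination, went from 1.28 ± 0.16 to 2.55 ± 0.20 FPKM (log2 fold change 0.91). The list also holds POLQ, the polymerase of microhomology-mediated repair, which went from 1.48 ± 0.18 to 3.80 ± 0.24 FPKM (1.33). MUS81, a nuclease that cuts stalled forks and overlaps EFEMP2, fell from 25.9 ± 1.8 to 11.5 ± 0.6 FPKM (-1.17). BRCA1 rose by 0.28, which did not pass without olaparib replicate 2 or in limma (adjusted p 0.198 at most).

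In other DNA repair genes 18 of 51 were higher (35.3%) and 8 lower (15.7%), against 26.8% and 28.0% of all tested genes. Their median log2 fold change was 0.10 and none passed 2-fold, with XRCC5, a Ku subunit, at 0.50. Among checkpoint genes 17 of 26 were higher and 4 lower, with PPM1D, a phosphatase that turns the checkpoint off, at 1.29, H2AFX, the histone marked at breaks, at 0.71, and CLSPN, an adaptor of CHK1, at 1.10. ATR, the kinase of stalled forks, rose by 0.23. ATM fell by 0.20, a call lost in 6 of the alternative fits, among them those without vehicle replicate 2 or olaparib replicates 1 or 2 (adjusted p between 0.052 and 0.253). In the PARP family and ADP-ribose hydrolases, 4 of 22 were higher and 5 lower, close to the shares of all tested genes. PARP1, a target of the drug, stood at 59.9, 55.9 and 55.1 FPKM in vehicle and at 80.3, 80.9 and 79.6 FPKM under olaparib (0.46 ± 0.04). PARP2, the other, measured 10.1 ± 0.5 and 10.5 ± 0.3 FPKM (0.03, adjusted p = 0.77).

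Androgen response genes split. Of 45 tested, 19 were higher and 21 lower. KLK3, which encodes PSA, stood at 2668, 2697 and 2678 FPKM in vehicle and at 1628, 1663 and 1682 FPKM under olaparib, a log2 fold change of -0.72 ± 0.04. KLK2 fell by 0.72 as well, FOLH1, which encodes PSMA, by 1.01 and STEAP2, a metalloreductase, by 1.09. FKBP5, a cochaperone of steroid receptors, rose from 16.7 ± 0.4 to 39.8 ± 1.8 FPKM (1.22) and MAF, a transcription factor, from 1.61 ± 0.11 to 9.34 ± 1.38 FPKM (2.50). Of the luminal markers, which share members with this list, 2 of 12 were higher and 9 lower. Neuroendocrine genes were lower in 4 of 8 and higher in 1, with SYP, a synaptic vesicle protein, at 1.23 and 0.54 FPKM.

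The lists of innate immunity moved by little at the median, between -0.24 and 0.35 on the log2 scale. Interferon-stimulated genes were higher in 17 of 40 and lower in 5, with ISG15, a ubiquitin-like modifier, at a log2 fold change of 0.78 and TRIM22, also a p53 target, at 2.58. Nucleic acid sensors and APOBEC3 genes were higher in 7 of 12 and lower in none, the largest being the cytidine deaminases APOBEC3C and APOBEC3B (1.26). MHC class I genes were lower in 10 of 17 and higher in 4, with HLA-B at -0.50 and B2M at 0.43. NF-kB targets were higher in 10 of 19, with LIF, a cytokine, at 2.30, and lower in 3; the 10 became 6 without olaparib replicate 2 or 3. VEGFA, the angiogenic factor, fell from 104 ± 13 to 22.7 ± 0.8 FPKM (-2.22).

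Growth and metabolism lists moved in different directions. MYC targets in ribosome biogenesis were higher in 29 of 37 and lower in 3, and MYC itself rose by 0.57 on the log2 scale. Ribosomal proteins were higher in 18 of 76 and lower in 21, near the shares of all genes. Glycolysis and hypoxia genes were higher in 22 of 36 and lower in 3, with LDHA, which makes lactate, at 0.83, and respiratory chain subunits higher in 27 of 59 and lower in 7. Cholesterol and fatty acid genes were lower in 18 of 35 and higher in 7, with SCD, the stearoyl desaturase, at -1.08 and SREBF2, the regulator of sterol synthesis, at -0.96. Lysosome and autophagy genes were lower in 24 of 50 and higher in 7, with the β-galactosidase GLB1 at -0.80.

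Of 22 NRF2, glutathione and iron genes, 8 were higher (36.4%) and 7 lower (31.8%), with a median log2 fold change of -0.002. Over all tested genes the shares were 26.8% higher and 28.0% lower. FTH1, the ferritin heavy chain, was at -0.89 and FTL, the light chain, at 0.44. Mesenchymal and matrix genes were higher in 7 of 18 and lower in 7, with SNAI2, an EMT transcription factor, at 2.47 and ITGA5, the fibronectin receptor subunit, at -1.64. Epithelial keratins and junction genes were lower in 14 of 28 and higher in 10, with ESRP1, an epithelial splicing factor, at -1.39 and the tight junction gene CLDN7 at -1.06.

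The genes that moved furthest included few from these lists. The 10 largest rises among genes whose mean reached 1 FPKM in either group were APOBEC3C, LOC101927501, SERPINB5, ZNF812, SULF2, LINC00844, UGT2B11, ID1, SSTR5 and ADAM7, and all but ID1 and ZNF812 stayed under 4 FPKM. ID1, an inhibitor of differentiation factors, stood at 1.19, 0.75 and 1.93 FPKM in vehicle and at 16.5, 14.8 and 11.3 FPKM under olaparib, a log2 fold change of 3.56 ± 0.20. ID3, a relative of ID1 added after its value was seen, rose by 3.08. SERPINB5, which encodes maspin, stood at 0.18, 0.08 and 0.04 FPKM in vehicle and at 2.15, 2.32 and 2.53 FPKM under olaparib (4.34 ± 0.27). SULF2, a heparan sulfatase, went from 0.16 ± 0.05 to 2.34 ± 0.15 FPKM (3.84). APOBEC3C had 1 count over the vehicle libraries and 65 over the olaparib libraries, a ratio of 59.1 with an exact 95% interval of 10.2 to 2370 for counting error.

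The 10 largest falls were PRSS2, PRSS1, FGF21, BEST1, DUSP27, KLHDC7B, S100P, DMGDH, PRSS3 and FUT3. S100P, a calcium-binding protein, was the most abundant of them. It stood at 152.7, 170.7 and 177.8 FPKM in vehicle and at 5.69, 4.87 and 3.36 FPKM under olaparib, with a log2 fold change of -5.31 ± 0.11 (adjusted p = 3.00e-23). PRSS1, PRSS2 and PRSS3 encode trypsinogens that are close copies, so how reads were split among them is uncertain. PRSS1 fell from 18.7 ± 3.95 to 0.06 ± 0.07 FPKM, and PRSS2, with 101 counts in vehicle and 0 under olaparib, was at least 37.0-fold lower against a floor of 3 counts over the group. BEST1, a chloride channel, went from 11.6 ± 0.5 to 0.19 ± 0.07 FPKM, and it overlaps FTH1, which fell too. DMGDH, an enzyme of glycine metabolism, and FUT3, a fucosyltransferase, had log2 fold changes of -5.24 and -4.95.

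Promoter letters differed between the lists. RefSeq promoters matched 10788 of the 13922 genes, with the first listed start used where there were several. TGATGNAAN was found in 1.67% of these, in 33 of 358 genes lower by at least 2-fold (9.22%) and in 9 of 277 higher (3.25%). It was found in 7 of 39 ATF4 targets and in 5 of 12 tRNA synthetases, which were CARS, IARS, AARS, TARS and NARS, all lower. The close copies PRSS1, PRSS2 and PRSS3 are among the 33. TTTGAA was found in 45 of 64 mitotic genes against 9.26% of all, CCAAT in 48 of 64 against 36.8%, and TTTCGCGC or TTTGGCGC, the E2F sites searched, in 16 of 54 replication genes against 2.09%. CCAAT was also found in 21 of 24 unfolded protein response genes, and with CCACG in 17 of these against 17.8% of all. The interferon element was found in 19 of 31 interferon-stimulated genes against 2.57%, the NF-kB site in 4 of 13 NF-kB targets against 1.55% and the heat shock element in 3 of 18 heat shock genes against 0.32%. TGACNNNGC was found in 5 of 17 NRF2 list genes against 15.3% of all and TCACNCCAC in 1 of 28 cholesterol genes against 1.05%.

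The olaparib step was then set beside the same step in cells given VIC-1911. The combination was compared with VIC-1911 alone, which uses none of the 6 libraries above but crosses the same break in library numbers. There 2901 genes (20.8% of 13929) were higher and 3146 (22.6%) lower. Of the 369 genes that rose at least 2-fold under olaparib alone, 215 were higher again, 38 lower and 115 did not pass, with 1 not tested. Of the 492 that fell, 136 were lower again, 44 higher and 238 did not pass, and 74 had too few counts to test. The 2 olaparib steps differed by the interaction test in 6333 of 14409 genes (44.0%).

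The p53 targets rose in both steps. In the combination against VIC-1911, 40 of 56 were higher and 4 lower, with a median log2 fold change of 0.46. CDKN1A stood at 96.1 ± 3.5 FPKM with VIC-1911 and at 258 ± 2 FPKM with both drugs, a log2 fold change of 1.47. BTG2 rose by 1.19, ZMAT3 by 1.47 and MDM2 by 0.76. Their mean levels ran in the order vehicle, VIC-1911, olaparib, combination.

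The ATF4 targets behaved otherwise. In the second step 13 of 45 were higher and 17 lower, with a median of -0.09. PCK2 stood at 246 ± 11 FPKM in vehicle, 11.6 ± 0.9 with olaparib, 16.5 ± 1.3 with VIC-1911 and 12.3 ± 0.6 with both. S100P, which is not on the ATF4 list, measured 4.64 ± 1.18, 4.23 ± 0.18 and 8.17 ± 0.51 FPKM in the 3 drug groups. The mean level of the ATF4 targets, as log2(FPKM + 0.1) less the vehicle mean, lay between -1.79 and -1.78 in the olaparib libraries, between -1.70 and -1.69 in the VIC-1911 libraries and between -1.78 and -1.74 in the combination libraries. Of 26 unfolded protein response genes, 21 were lower in the second step and 1 higher, with a median of -0.24 against -0.63 in the first step. Of 21 tRNA synthetases, 8 were lower and 2 higher, with a median of -0.08 against -0.55.

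**Figure D4:**
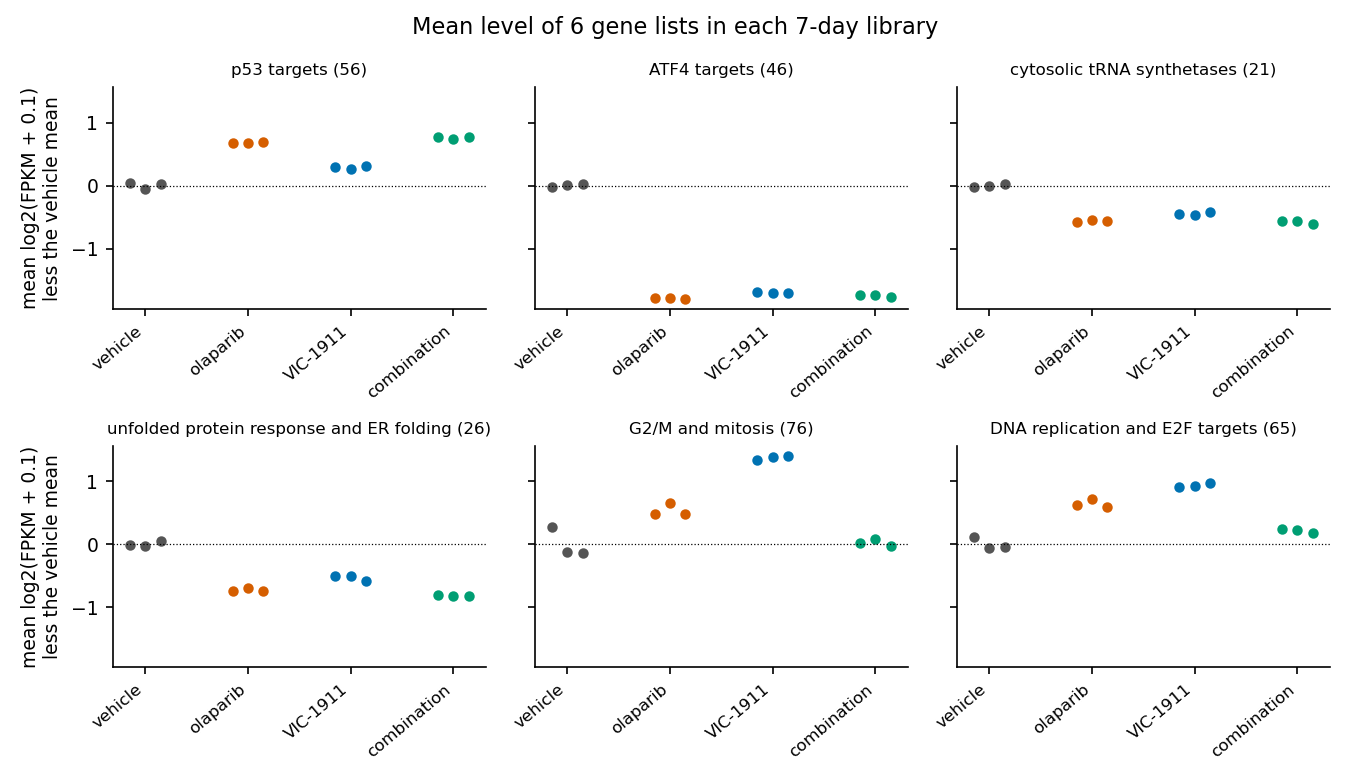
Mean of log2(FPKM + 0.1) over the tested members of 6 gene lists, less the vehicle mean (vertical), in each 7-day library (points) of the 4 groups. The ATF4 targets lie near the same low level in the 3 drug groups, the p53 targets are highest in the combination, above olaparib alone, and the mitotic genes are highest with VIC-1911 alone.

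Mitotic and replication genes reversed. Olaparib raised them against vehicle, but 75 of 76 mitotic genes and 65 of 65 replication genes were lower in the combination than with VIC-1911 alone, with medians of -1.41 and -0.67. TOP2A stood at 22.3 ± 0.3 FPKM with VIC-1911 and at 10.2 ± 0.4 FPKM with both drugs, and AURKA at 24.1 ± 1.6 and 6.96 ± 0.38 FPKM, against 6.35 ± 1.43 FPKM in vehicle and 9.13 ± 0.91 FPKM with olaparib. CDK1 measured 40.1 ± 2.1 FPKM with VIC-1911, beside 40.3 ± 3.2 FPKM with olaparib. In the homologous recombination and Fanconi anaemia list 30 of 50 were lower and 1 higher, with BRCA2 at -0.82. POLQ, the member that acts in microhomology-mediated repair, was at -0.35. Olaparib was also compared directly with VIC-1911, in a fit that shares the olaparib libraries. There 1598 of 14409 genes (11.1%) were higher and 1777 (12.3%) lower, with 74 of 76 mitotic genes lower, 37 of 56 p53 targets higher and 5 of the 46 ATF4 targets higher and 19 lower.

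**Figure D5:**
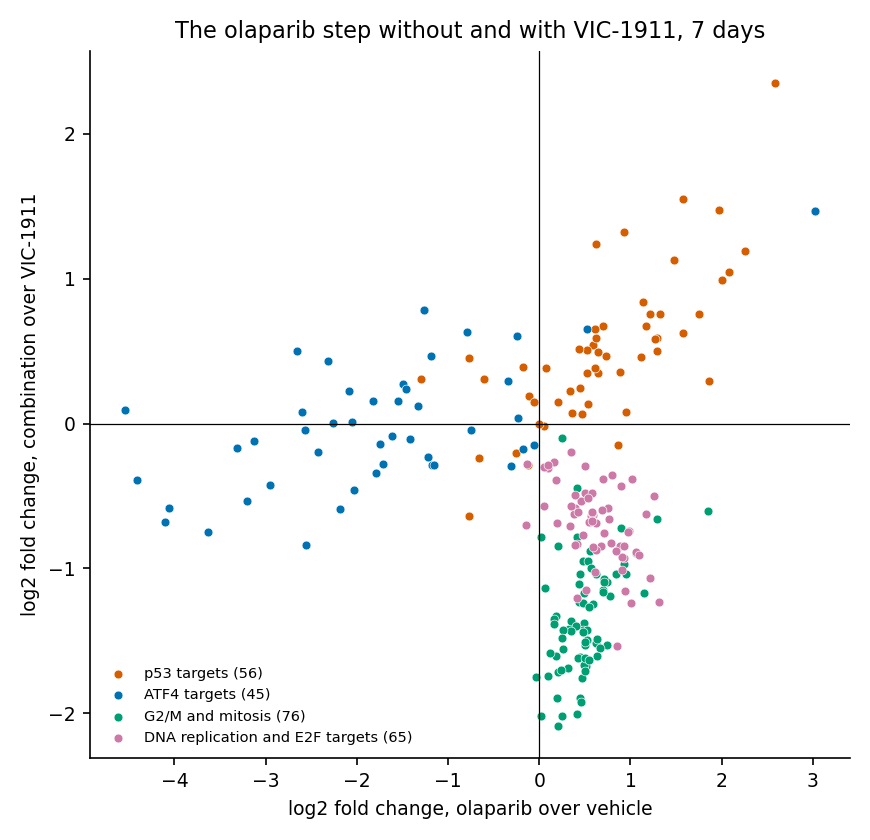
Each member of 4 gene lists by its log2 fold change in olaparib over vehicle (horizontal) and in the combination over VIC-1911 (vertical). The p53 targets lie mainly in the upper right, the mitotic and replication genes in the lower right, and the ATF4 targets along the left with medians of -1.77 and -0.09. CDKN1A, on both lists, is drawn with the ATF4 targets.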

How the data were processed

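RNA was sequenced from C4-2B cells as paired-end reads, which the authors trimmed with Trimmomatic and aligned to GRCh38 (hg38) with STAR (version 2.6.0 in the submitters' processing notes). The deposited raw counts per gene were tested as they were. The deposited FPKM values, which the authors computed from the counts, gave levels. The labels and the methods name different RNA kits. Whether counting used strand, and the gene annotation, are not given in the sources used here. The 2-day tables were not used here. Of the gene names, 28 had been turned into dates, with 0.193% of counts, and 20516 of 21276 matched a RefSeq symbol.

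Genes with at least 10 counts in 3 of the 6 libraries were tested with edgeR 4.0.16 in R 4.3.3 (TMM, quasi-likelihood F test, Benjamini-Hochberg), with no block. The combination against VIC-1911 was fitted on its own 6 libraries, and olaparib against VIC-1911 and the interaction on 12. SEs are the log2 fold change over the square root of F. The biological coefficient of variation was 4.22%. Replicate pairs differed beyond sampling noise (chi-square per degree of freedom of 1.68 to 4.11). Totals of 4967931 to 19684208 counts set the precision, and intervals and floors cover counting error only. The fit was tested on simulated data. Alternatives were upper-quartile scaling, library size only, DESeq2 1.42.0, no filter, a mean of at least 1 FPKM, a replicate block, the 12-library fit, limma 3.58.1 on log2(FPKM + 0.1), glmTreat and each library left out.

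The comparison and the 29 lists were chosen with earlier results of these data known. Named genes were the 10 largest rises and falls past adjusted p 0.05 and 2-fold, whose mean reached 1 FPKM in either group and whose groups did not overlap, up to 4 members per list by smallest adjusted p in its leading direction and 2 in the other, marker genes, and a short set of damage, proliferation and lineage genes. Positions are from RefSeq on GRCh38.p14. Of 195 named genes with a position, 111 overlap another annotated gene. Some named genes are not reported here.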

Additional observations from a re-analysis of the deposited data

Results flagged for a closer look

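The olaparib step differed with VIC-1911 present, by the interaction test over 14409 genes (edgeR, adjusted p under 0.05), in the highest shares of members in 8 lists: 76 of 76 mitotic genes, 64 of 65 replication genes, 21 of 26 checkpoint genes, 41 of 46 ATF4 targets, 16 of 21 tRNA synthetases, 22 of 26 unfolded protein response genes, 16 of 20 heat shock genes and 33 of 37 MYC targets in ribosome biogenesis. Most members also differed in other lists, among them 38 of 56 p53 targets, 37 of 50 homologous recombination genes, 33 of 45 androgen response genes and 33 of 50 lysosome and autophagy genes. Over all genes the share was 44.0%.

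The named genes below moved in opposite directions in the 2 steps, each step past its threshold, and the value is the log2 difference of the step with VIC-1911 from the step without it. Among those that rose under olaparib alone and fell when it was added to VIC-1911, the cell cycle, replication and repair genes were CDK1 (-2.46), RRM2 (-2.26), AURKA (-2.23), MKI67 (-2.10), CLSPN (-2.02), CKS2 (-1.96), TOP2A (-1.82), H2AFX (-1.77), BRCA2 (-1.74), MCM4 (-1.74), MDC1 (-1.73), POLQ (-1.69), KPNA2 (-1.64), XRCC2 (-1.62), FANCI (-1.46), MCM2 (-1.43), PCNA (-1.41), RNASEH2A (-1.23), BRCA1 (-1.22) and PARP1 (-0.74). The others were APOBEC3B (-2.02), HIST1H1C (-1.97), LDHA (-1.26), HIST1H2BK (-1.16), TFRC (-1.07), GSR (-0.86), HSPH1 (-0.83), PGAM1 (-0.80), WDR43 (-0.71), FARSA (-0.69), DSG2 (-0.63), COX6B1 (-0.61), FDFT1 (-0.59) and VARS (-0.47).

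Those that fell under olaparib alone and rose when it was added were S100P (6.28), VEGFA (2.49), SESN2 (2.04), SARS (1.80), ISG20 (1.46), P4HA2 (1.41), MACROD1 (1.31), COL6A2 (1.25), HIST1H2AK (1.12), NEIL1 (1.08), ENO2 (0.92) and HLA-B (0.67). The fall of ENO2 under olaparib alone did not pass in 7 alternative fits (adjusted p between 0.068 and 0.215), among them those without vehicle replicate 1 or olaparib replicates 2 or 3. That of HIST1H2AK did not pass in 3, which were DESeq2 and the fits without vehicle replicate 2 or olaparib replicate 3 (adjusted p between 0.099 and 0.246). The rises of MKI67 and BRCA1 each failed in 2 alternative fits. S100P stood at 4.23 ± 0.18 FPKM with VIC-1911 alone.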

How the results depend on the processing

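All 4 counts of changed genes kept within 1.5 times of the reported value except in 5 cases. With no filter 616 genes were higher by at least 2-fold, and with a mean of at least 1 FPKM 208 were higher and 317 lower, since other sets of genes were tested. With glmTreat, which tests against a 2-fold change, 167 were higher and 229 lower. With 1 library left out, 327 to 403 genes were higher and 429 to 504 lower by at least 2-fold, and 3198 to 3655 and 3350 to 3695 without the fold limit. Of the 369 and 492 calls, 244 and 334 remained in all 6 such fits and none changed sign. DESeq2 shared 342 of the 369 and 453 of the 492. Scaling by library size alone moved the calls to 4515 higher and 3270 lower.

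Among lists, CDK inhibitors fell from 2 lower to 1 under library size only, DESeq2, the replicate block and limma, and ran from 1 to 3 with a library left out. With a mean of at least 1 FPKM, which tested fewer genes, neuroendocrine genes had 2 lower, interferon-stimulated genes 9 higher, NF-kB targets 6 higher and mesenchymal genes 3 higher. NF-kB targets ran from 6 to 10 with a library left out. Ribosomal proteins had 13 lower under library size only and 12 under limma, and the cause was not tested. The other list counts, and both comparisons with VIC-1911 libraries, stayed within 1.5 times in every alternative run.

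Over 2761 recomputed values of named genes, 2679 kept their call, 66 lost it, 16 gained it and 0 called values reversed. No pairing by replicate number was detected: same-numbered deviations correlated at 0.004, 0.033 and 0.023, and the others lay between -0.032 and 0.008. Values this small cannot exclude that same-numbered cultures were set up together. With the replicate block 382 genes were higher and 528 lower by at least 2-fold. Depth limits genes near 0, where folds rest on few counts.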
